A study of Homo sapiens with 6 samples.

Results

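The BTG and TOB proteins and the ZFP36 proteins are adaptors that shorten the life of messenger RNA. Peaks of di- and trimethylated lysine 4 of histone H3 (H3K4me2 and H3K4me3) were described at the 8 genes BTG1, BTG2, BTG4, TOB1, TOB2, ZFP36, ZFP36L1 and ZFP36L2, taken by name from 19974 protein-coding genes on chromosomes 1 to 22 and X. The set was chosen by gene family, and also selected on H3K4me3 width, since BTG1 and ZFP36L2 had been seen with wide H3K4me3 peaks. The H3K4me3 values of those genes are therefore a description only, and so are their H3K4me2 widths, since H3K4me3 lay almost wholly within H3K4me2. The values come from chromatin immunoprecipitation followed by sequencing (ChIP-seq) in K562 cells, an established human line from blast crisis chronic myeloid leukaemia. The groups are K562 cells with the hairpin shControl and K562 cells with the hairpin shStau2. The latter targets STAU2, which binds structured RNA and takes part in mRNA transport and decay. The labels name no further treatment or time. For each hairpin there were 1 H3K4me2, 1 H3K4me3 and 1 input library. Without replicates, nothing reported here could be tested, and each value stands for a single library.

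BTG and TOB proteins share an amino-terminal domain that binds the CNOT7 and CNOT8 deadenylases, and they bring these enzymes to poly(A) tails. ZFP36 proteins bind AU-rich elements in the 3′ untranslated regions of short-lived mRNAs through tandem zinc fingers and recruit the CCR4-NOT complex through CNOT1. Several of the genes are early response genes that are switched on quickly by growth factors, stress or differentiation signals. In blood, BTG1 and BTG2 are known as antiproliferative genes of lymphocytes, and mouse ZFP36L1 and ZFP36L2 limit the growth of developing lymphocytes. H3K4me3 marks active gene starts, and H3K4me2 marks gene starts and enhancers.

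The 250 bases before 6 annotated starts are printed here, because the peaks at these starts are interrupted (BTG1, ZFP36L1), lie at a second start (TOB1, ZFP36L1) or are narrow and shared with a microRNA gene (BTG4). Sequences are from RefSeq, build GRCh38.p14, and run 5′ to 3′ on the strand of the gene, which is the minus strand for each of these 4 genes. Capitals mark matches on either strand to 5 motifs, which are CCAAT (bound by NF-Y), the GC box GGGCGG, the cyclic AMP response element TGACGTCA, the early growth response motif GCGGGGGCG and the core promoter motif TATAAA. The GC box and the early growth response motif can overlap.
BTG1, chr12:92145847-92146096: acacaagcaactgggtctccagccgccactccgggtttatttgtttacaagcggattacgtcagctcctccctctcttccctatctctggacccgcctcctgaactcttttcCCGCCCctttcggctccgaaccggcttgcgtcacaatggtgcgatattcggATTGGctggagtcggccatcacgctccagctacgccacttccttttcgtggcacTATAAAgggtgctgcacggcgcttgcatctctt
ZFP36L1 first start, chr14:68796244-68796493: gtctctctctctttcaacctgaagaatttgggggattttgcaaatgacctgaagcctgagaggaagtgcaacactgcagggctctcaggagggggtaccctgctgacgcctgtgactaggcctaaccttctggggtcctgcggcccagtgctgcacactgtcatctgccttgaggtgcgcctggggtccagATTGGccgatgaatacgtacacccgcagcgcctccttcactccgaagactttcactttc
ZFP36L1 second start, chr14:68793417-68793666: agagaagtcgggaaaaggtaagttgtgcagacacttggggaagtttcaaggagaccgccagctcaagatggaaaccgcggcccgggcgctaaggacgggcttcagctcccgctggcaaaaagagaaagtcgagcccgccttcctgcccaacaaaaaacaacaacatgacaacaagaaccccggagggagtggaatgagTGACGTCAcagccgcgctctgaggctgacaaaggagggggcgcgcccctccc
TOB1 first start, chr17:50867979-50868228: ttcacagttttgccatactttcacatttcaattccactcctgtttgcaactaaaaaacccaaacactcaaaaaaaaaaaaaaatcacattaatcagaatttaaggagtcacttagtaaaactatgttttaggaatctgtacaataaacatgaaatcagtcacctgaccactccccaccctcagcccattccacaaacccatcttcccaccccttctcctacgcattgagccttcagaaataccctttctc
TOB1 second start, chr17:50866355-50866604: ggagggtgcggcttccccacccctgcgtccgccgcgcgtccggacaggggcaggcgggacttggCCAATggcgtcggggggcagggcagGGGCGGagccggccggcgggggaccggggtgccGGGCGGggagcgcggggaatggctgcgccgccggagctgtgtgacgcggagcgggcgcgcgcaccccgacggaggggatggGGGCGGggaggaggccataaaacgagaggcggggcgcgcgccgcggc
BTG4, chr11:111512387-111512636: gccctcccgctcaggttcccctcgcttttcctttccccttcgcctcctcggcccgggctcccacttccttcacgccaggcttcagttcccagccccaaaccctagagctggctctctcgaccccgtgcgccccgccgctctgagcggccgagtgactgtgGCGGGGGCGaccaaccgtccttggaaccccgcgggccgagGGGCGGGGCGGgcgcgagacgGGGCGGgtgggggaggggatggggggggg

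The letters differ most between the TOB1 starts. The first TOB1 stretch holds 1 CpG and has a GC content of 38.4%, and the second holds 38 CpG and has 80.4%, against medians of 16 and 62% over 22132 promoter stretches of protein-coding genes. TATAAA is found in 9.0% of those stretches and, among the 9 stretches of the members, only before BTG1, 33 bases from its start. TGACGTCA is found in 2.02% and, among the members, only before the second start of ZFP36L1, 52 bases from it. GCGGGGGCG is found in 6.09% and in the stretches of BTG2 and BTG4, GGGCGG in 53.7% and in 6 of the 9, and CCAAT in 32.7% and in 4. The AP-1 motif TGANTCA was found in 5.35% of stretches, the ETS motif CCGGAAG in 10.7%, the GATA motif AGATAA in 7.08% and a serum response element in 0.0361%. Each was found in 0 of the 9 stretches of the members. A match is a description of letters and not of a bound factor. RefSeq promoter stretches matched 7 of the 8 genes, and ZFP36L2 is measured from its annotated ends.

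After removal of duplicate tags, the 4 ChIP libraries held from 26221869 to 30744332 tags. The H3K4me2 lists break off partway along the genome, and all 8 genes lie in the part held by both. At 15552 H3K4me3 peaks that matched 1 to 1 between hairpins, the median fold enrichment, the authors' ratio of the pileup at the summit to the local background, was 14.99 for shControl and 30.97 for shStau2, which is 2.07 times as high. At 40029 matched H3K4me2 peaks the ratio was 1.2. The share of duplicate tags in the H3K4me3 libraries was 7% for shControl and 13% for shStau2. These library differences move with every H3K4me3 difference below, and their part in it was not tested. More cells with the mark and more of the mark per cell cannot be told apart. The start regions of 6 of 6 erythroid and megakaryocytic genes that mark K562 cells, among them GATA1 and TAL1, carried H3K4me3 in both lists, and those of 3 T cell genes, among them CD3E, carried none. Of 3 hepatocyte genes, APOA1 carried a peak in both lists.

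All 8 genes carried both marks under both hairpins. Bases covered by H3K4me3 peaks within 10 kb of the gene were more under shStau2 at 8 of 8 genes, and the same was found at 98.8% of 15609 protein-coding genes with a covered base in either list. At least 25% more covered bases under shStau2 were found at BTG4, BTG2, BTG1 and ZFP36, and at 49.8% of the 14434 genes covered in both lists. At least 20% fewer were found at 0 of the 8 and at 0.125% of all genes, and any fewer at 1.22% of the 15609. The median ratio was 1.293 over the 8 genes and 1.249 over all genes, and the direction was that of nearly all genes. Of all protein-coding genes, 72.3% had H3K4me3 in both lists within this window, 5.84% had it for shStau2 alone and 0.0451% for shControl alone. For a start peak, which lies within 1 kb of a start, these shares were 61.5%, 3.74% and 0.0801%, and all 8 genes had one in both lists. The widest H3K4me3 start peak was wider under shStau2 at 8 of 8 genes and at 97.2% of 12278 genes. H3K4me2 was listed within the window in both lists at 86.6% of 14728 genes, for shStau2 alone at 2.3% and for shControl alone at 0.509%. An H3K4me2 start peak was in both lists at 70.3%.

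**Figure D1:**
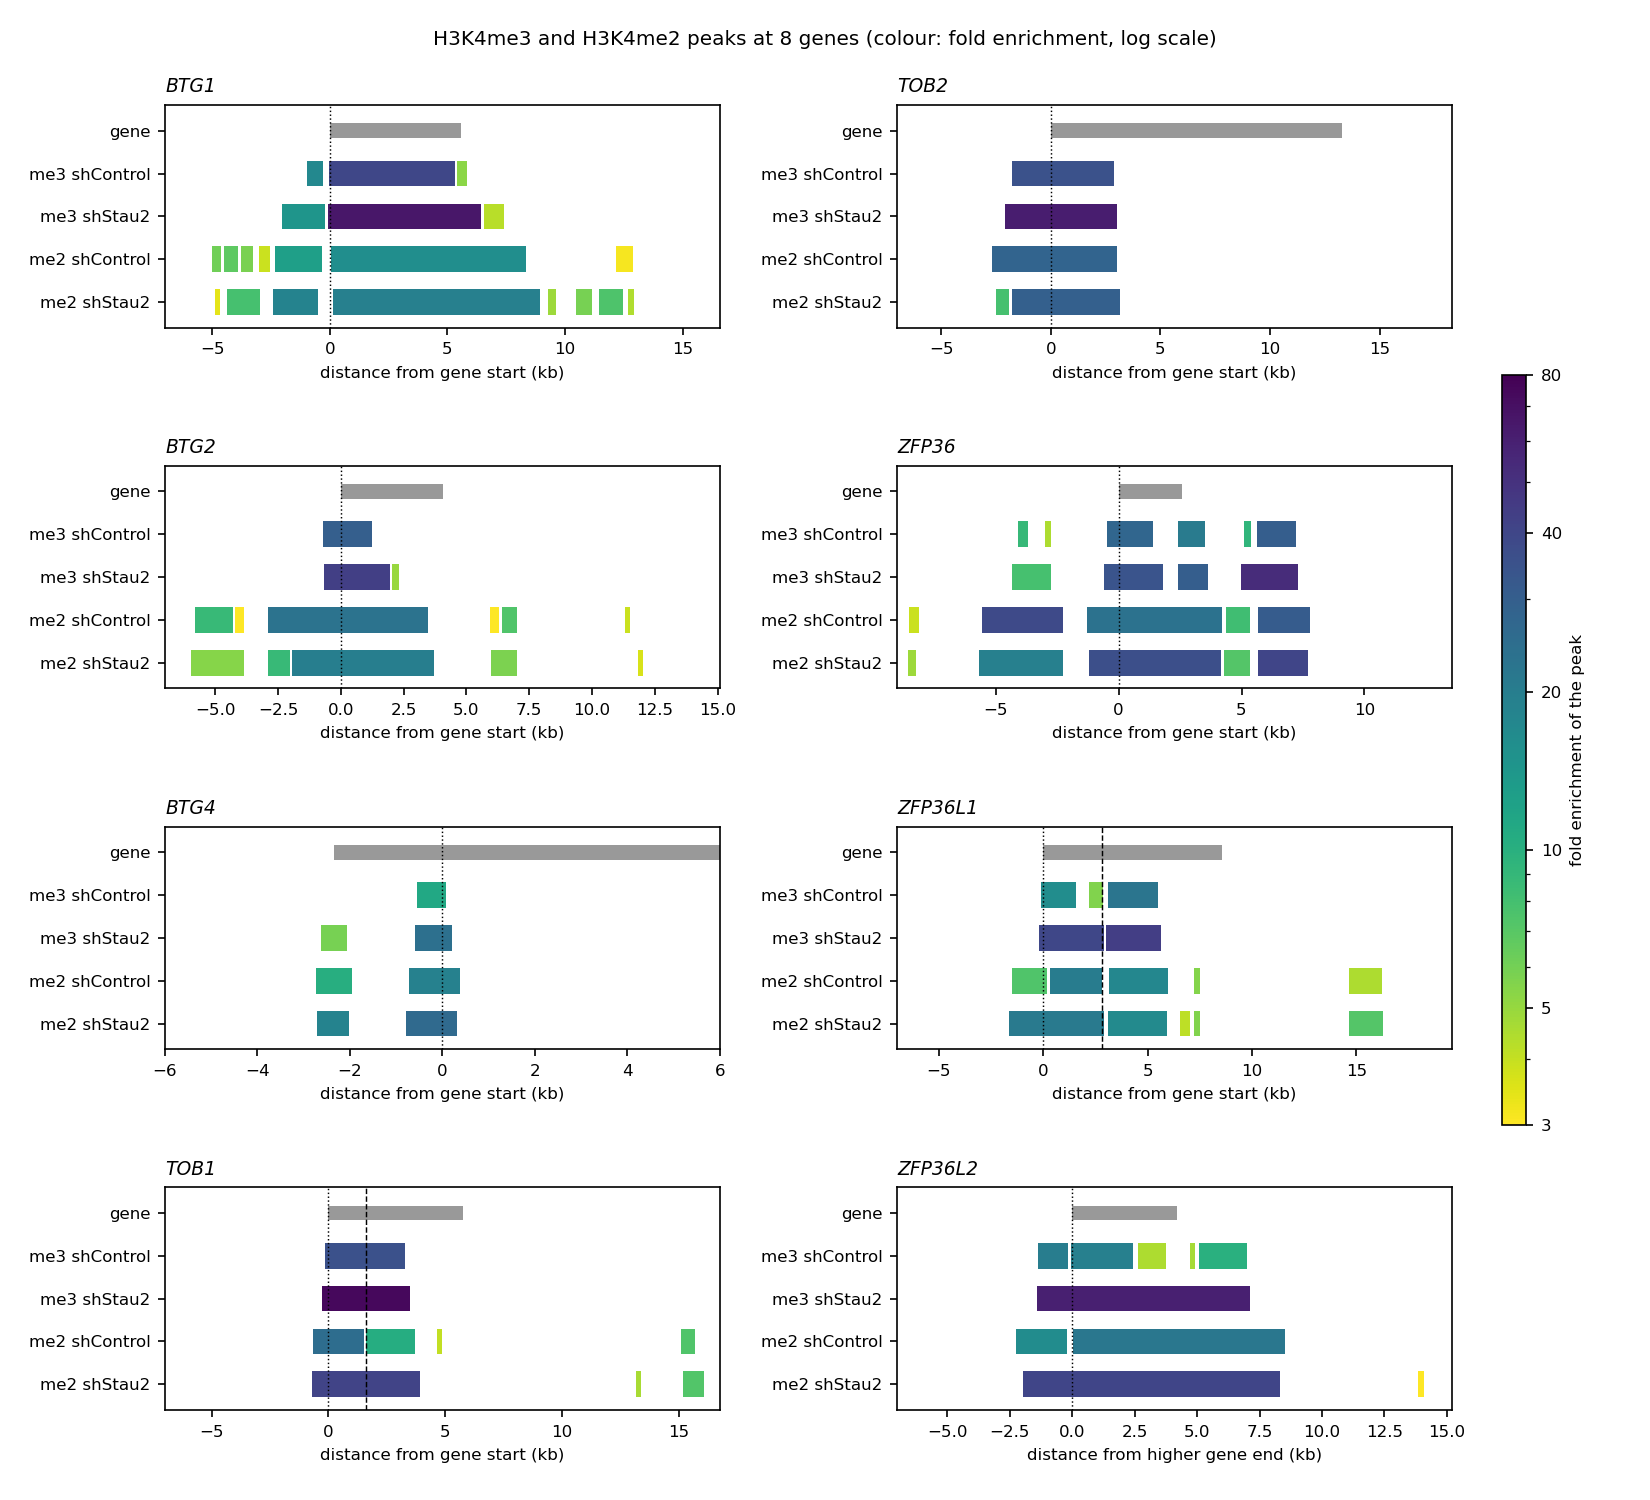
Peaks of H3K4me3 (me3) and H3K4me2 (me2) at the 8 genes, as distance in kb from the first annotated start in the direction of transcription (dotted line; dashed line, a second start) or, for ZFP36L2, from its higher annotated end. The grey bar is the gene and colour is the authors' fold enrichment on a log scale. Peaks of BTG4 deep inside the gene lie outside its panel. At ZFP36L2 the 5 H3K4me3 peaks under shControl correspond to 1 peak under shStau2, and at BTG1 a gap over or just before the start is found in all 4 lists.

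BTG1, a partner of MYC in a chromosome translocation of B cell leukaemia and an adaptor of CNOT7 and CNOT8, was marked over its whole length. The gene spans 5569 bases at chr12:92140278-92145846 on the minus strand. Its widest H3K4me3 peak under shControl ran from 92140523 to 92145868 (5346 bases, 39.97-fold). Under shStau2 it ran from 92139415 to 92145913 (6499 bases, 65.17-fold). H3K4me3 covered 98.3% of the gene under shControl and 100% under shStau2, whereas the median over the 3008 marked genes of 2561 to 13308 bases was 15.6% under shControl. BTG1 was selected on its wide H3K4me3, so this contrast is a description only. Within 10 kb, H3K4me3 covered 6445 bases under shControl and 9150 under shStau2, which gives a ratio of 1.42, at or above that of 75.1% of all genes. The difference of 2705 bases was larger than or equal to that of 98.8% of genes.

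The bases just before the start of BTG1 lay in a break of the peaks, and H3K4me2 also left out the start itself. Under shControl no H3K4me3 was listed between 92145869 and 92146124, a gap of 256 bases, and under shStau2 the gap was 156 bases, from 92145914 to 92146069. H3K4me2 left 411 bases unlisted there under shControl and 617 under shStau2, and covered 0 of the 300 bases around the start in both lists. The CCAAT match of the printed BTG1 stretch lay in the gap of all 4 lists. The TATAAA match lay in the gap of the H3K4me3 list under shControl and of both H3K4me2 lists, and inside the H3K4me3 peak under shStau2. Such a gap of 1 kb or less was found at 15.9% of 13336 marked promoter windows for H3K4me3 under shControl and at 6.32% under shStau2, and for H3K4me2 at 43.7% and 37.7%. A second set of peaks began on the far side of the gap, over BTG1-DT, a divergent noncoding transcript. That H3K4me3 peak was 704 bases wide (17.3-fold) under shControl and 1792 (14.5-fold) under shStau2. Its summit pileup was higher under shStau2, at 115.0 against 40.4, so only the ratio over local background was lower. Of the bases covered under shStau2 only, 194 lay in gaps between shControl peaks and 2511 beyond them.

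H3K4me2 extended past H3K4me3 at BTG1 on both sides. Its widest peak was 8261 bases under shControl and 8809 under shStau2, with fold enrichments of 16.0 and 19.4. Its summit lay 5877 bases past the start under shControl and 5874 under shStau2, beyond the end of the gene and over the noncoding gene LINC01619. The H3K4me3 summit, in contrast, lay 368 and 479 bases past the start. H3K4me2 covered 12917 bases within 10 kb under shControl and 14607 under shStau2, which gives a ratio of 1.13. BTG1 had the highest H3K4me2 ratio of the 8, and 56.9% of all genes had that ratio or a lower one.

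BTG2, a target of p53 and an early response gene, had a narrower H3K4me3 domain inside a wide H3K4me2 domain. The gene lies at chr1:203305519-203309602 on the plus strand. Its H3K4me3 peak was 1950 bases wide under shControl (30.1-fold) and 2637 under shStau2 (43.8-fold), and the shStau2 list held a second peak of 277 bases inside the gene. Covered bases were 1950 and 2914, a ratio of 1.49. The upstream edge hardly differed, at position -692 from the start under shControl and -662 under shStau2, whereas the downstream edge lay 1257 and 1974 bases after the start. H3K4me2 covered 9390 bases under shControl and 9878 under shStau2, so that only 20.8% of the H3K4me2 bases carried H3K4me3 under shControl and 29.5% under shStau2. The strongest H3K4me2 start peak had a fold enrichment of 22.8 under shControl and 19.8 under shStau2. BTG2 was the only member with a lower fold enrichment under shStau2, as against 80.1% of 10354 genes with a higher one. The summit pileup of that peak was nevertheless higher under shStau2, at 78.3 against 64.6 under shControl.

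BTG4, which in mouse oocytes removes maternal mRNA and is not known for a role in blood, had the least of both marks. The annotated gene spans 130900 bases at chr11:111383826-111514725 on the minus strand. Its H3K4me3 peaks lay at its start and, further upstream, at the edge of HOATZ, a neighbouring gene. The H3K4me3 start peak was 636 bases wide under shControl (11.2-fold) and 819 under shStau2 (24.3-fold). A peak from 111514450 to 111515011 (5.91-fold), over the upstream edge of the annotated gene and the adjoining edge of HOATZ, was listed under shStau2 only. With it, the covered bases of BTG4 came to 636 with shControl and 1381 with shStau2, a ratio of 2.17, and without peaks at the ends of other genes the ratio was 1.29. H3K4me2 already marked that place under shControl (10.2-fold) and did so under shStau2 (18.5-fold), and it covered 2447 and 2575 bases in all.

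The BTG4 start lies inside MIR34BHG (chr11:111510602-111513888), the host gene of MIR34B and MIR34C, microRNA genes known as p53 targets. The MIR34B hairpin begins at 111512938, 552 bases upstream of the BTG4 start. The shControl H3K4me3 peak ended at 111512937 and the shStau2 peak at 111512988, so the microRNA hairpin overlapped listed H3K4me3 under shStau2 only, by 51 bases. H3K4me2 covered all of it in both lists. The mature microRNA sequences that RefSeq gives for these genes in the table used (GRCh38.p14, plus strand) are shown to identify them, with the seed, bases 2 to 8, in capitals.
hsa-miR-34b-5p, chr11:111512950-111512972: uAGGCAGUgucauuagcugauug
hsa-miR-34b-3p, chr11:111512987-111513008: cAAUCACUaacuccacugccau
hsa-miR-34c-3p, chr11:111513484-111513505: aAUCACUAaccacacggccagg
No seed is shared among these 3, and the 3p seeds of MIR34B and MIR34C differ by a shift of 1 base.

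TOB1 and TOB2, which bind the deadenylases and the poly(A)-binding protein, had the lowest H3K4me3 covered-base ratios of the 8. TOB1 lies at chr17:50862223-50867978 on the minus strand. Its H3K4me3 peak was 3420 bases wide under shControl (35.2-fold) and 3736 under shStau2 (74.9-fold). TOB2 lies at chr22:41433494-41446801 on the minus strand, with a peak of 4636 bases (34.9-fold) under shControl and 5077 (61.2-fold) under shStau2. The covered-base ratios were 1.09 at TOB1 and 1.10 at TOB2, and 10.7% and 11.3% of all genes had these ratios or lower ones. The 74.9-fold peak of TOB1 was the strongest start peak of any member in any list.

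The TOB1 peak spanned both annotated starts, and its summit lay past the CpG-rich second start rather than the CpG-poor first. The summit was 378 bases past the second start under shControl and 385 under shStau2, and 2002 and 2009 bases past the first. Summits of the strongest start peak lay a median of 199 bases past the first start over all genes in both H3K4me3 lists. H3K4me2 at TOB1 was split at the second start under shControl, with 101 unlisted bases from 50866371 to 50866471 between peaks of 2087 and 2189 bases. Under shStau2 a single H3K4me2 peak of 4647 bases (41.5-fold) was listed. At TOB2 the opposite was seen, since an H3K4me2 peak of 5690 bases under shControl (28.0-fold) was listed as 4906 and 605 bases under shStau2. H3K4me2 covered 5089 and 5433 bases at TOB1 and 5690 and 5511 at TOB2.

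ZFP36, which encodes tristetraprolin, sat among several peaks. The gene spans 2561 bases at chr19:39406847-39409407 on the plus strand. Its H3K4me3 start peak was 1885 bases wide under shControl (27.3-fold) and 2396 under shStau2 (34.1-fold). The fold enrichment ratio of 1.252 was the lowest of the 8 and below the 2.07 of matched peaks. The pileup at the summit was 75.3 under shControl and 135.5 under shStau2. A separate peak over the 3′ end and MIR4530 was 1099 bases wide (20.7-fold) under shControl and 1218 (30.5-fold) under shStau2. Downstream, peaks of 279 and 1599 bases under shControl, at a tRNA gene and at the neighbouring PLEKHG2, were listed as 1 peak of 2298 bases under shStau2. Upstream, peaks of 422 and 242 bases were listed as 1 peak of 1581. H3K4me3 covered 5526 bases under shControl and 7493 under shStau2, which gives a ratio of 1.36. It was 1.07 when shStau2 peaks under a fold enrichment of 8.2 and shControl peaks under 3.97 were left out, a rule that drops the upstream shStau2 peak. H3K4me2 covered the whole gene in both lists and 12272 and 12191 bases within 10 kb.

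ZFP36L1 had peaks at both of its starts. The gene lies at chr14:68787655-68796243 on the minus strand. The peak at the first start was 1658 bases wide under shControl (16.1-fold). A weak peak of 684 bases (5.59-fold) covered the second start, and a peak of 2429 bases (22.4-fold) lay past it. Under shStau2 the first pair was listed as 1 peak of 3141 bases (39.97-fold), next to a peak of 2619 (44.1-fold). The gap of 212 bases at the second start under shControl, from 68793165 to 68793376, was 93 bases under shStau2 and no longer touched the 300 bases around the start. H3K4me3 covered 4771 and 5760 bases, a ratio of 1.21, and 742 of the 989 bases listed under shStau2 only lay in gaps between shControl peaks. H3K4me2 covered 8876 and 9767 bases. Its break of 356 bases at the second start under shControl, from 68793072 to 68793427, took in the start itself, and under shStau2 that start was covered.

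ZFP36L2, which in the mouse is needed for blood stem cells, had the largest difference in peak width. The gene spans 4205 bases at chr2:43222402-43226606. Under shControl H3K4me3 was listed as 5 peaks of 1895, 220, 1138, 2484 and 1226 bases, with fold enrichments from 4.49 to 20.2. Under shStau2 a single peak ran from 43219471 to 43228030 (8560 bases, 59.7-fold). Its width was at or above that of 99.9% of genes with a start peak, against 81.9% for the widest shControl peak. ZFP36L2 was also selected on wide H3K4me3, so these ranks are a description only. The outer edges nevertheless lay close together, 152 and 44 bases further out under shStau2, so the span from the first to the last peak was 8364 bases under shControl and 8560 under shStau2. Of the 1597 bases listed under shStau2 only, 1401 (87.7%) lay in gaps between shControl peaks. The median of that share over 14421 genes was 0% and the 90th percentile 31.4%. The share can only be 0% where shControl peaks leave no gap of 1 kb or less, as at BTG2, BTG4, TOB1 and TOB2. These values include such genes, so they do not show how ZFP36L2 compares with other genes split into several peaks.

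**Figure D2:**
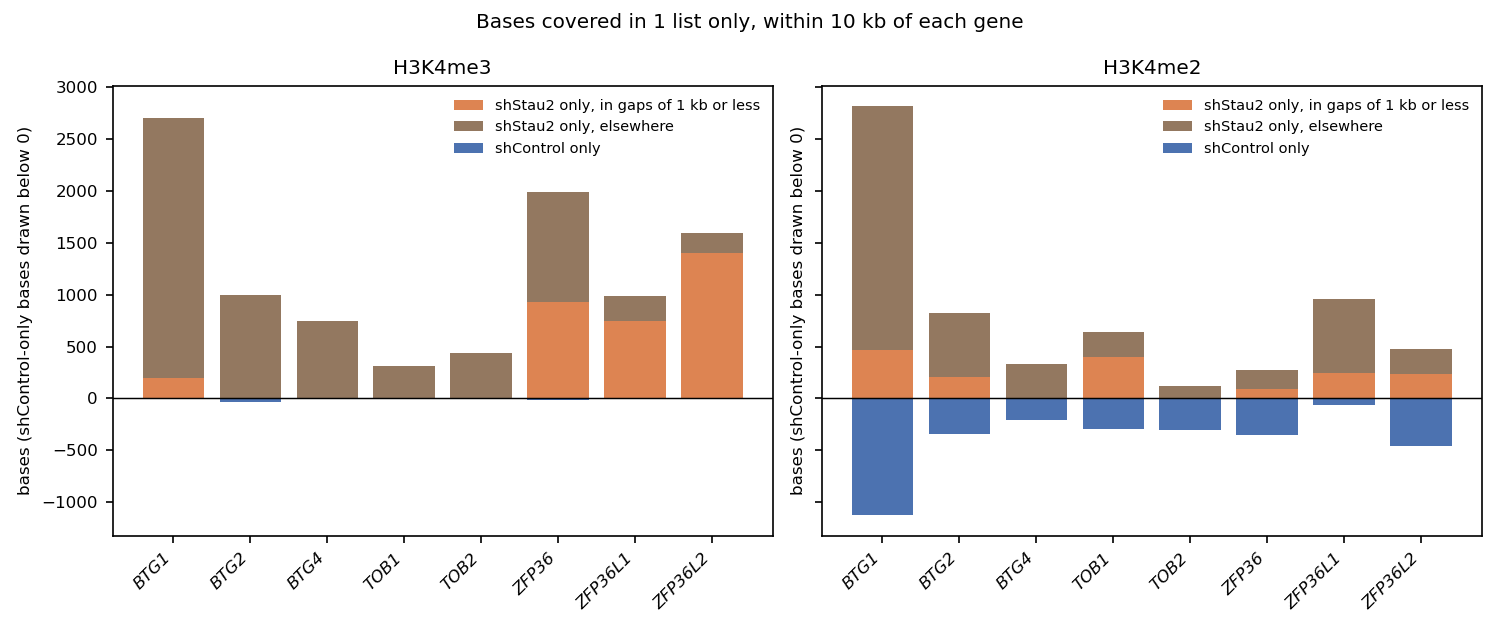
Bases within 10 kb of each gene that were covered in 1 list only, for H3K4me3 (left) and H3K4me2 (right). Bars above 0 give bases covered under shStau2 only, split into those in gaps of 1 kb or less between shControl peaks and those elsewhere, and bars below 0 give bases covered under shControl only. At BTG1 2511 of the H3K4me3 bases lay outside gaps, and at ZFP36L2 1401 of 1597 lay inside them.

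BTG1 and ZFP36L2 thus differed in layout although each had a wide domain. At BTG1 the joined H3K4me3 block, which joins peaks within 1 kb of each other, reached 1592 bases further at its lower end and 1033 at its upper end under shStau2. At ZFP36L2 the block had nearly the same ends and its inner gaps were closed. The strongest ZFP36L2 start peak had a fold enrichment of 20.2 with shControl and 59.7 with shStau2, with the ratio of 2.95 being the highest of the 8. The highest summit pileup of a ZFP36L2 start peak was 69.2 with shControl and 146.8 with shStau2. At ZFP36, which had the lowest fold enrichment ratio, it was 75.3 and 135.5. Pileup thus separated these genes less than fold enrichment, which divides by the local background. The H3K4me3 fold enrichment ratio was above the 2.07 of matched peaks at 3 genes (ZFP36L2, BTG4 and TOB1), and at 46% of all genes with a start peak in both lists. Measured against 1.95, the median of the single ratios of matched peaks, it was above at 4, ZFP36L1 included, and at 55.7% of all genes. The median ratio was 1.86 over the 8 and 2.02 over all genes. A higher fold enrichment under shStau2 was found at 8 of 8 genes and at 97.9% of 12278 genes with a start peak in both lists.

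**Figure D3:**
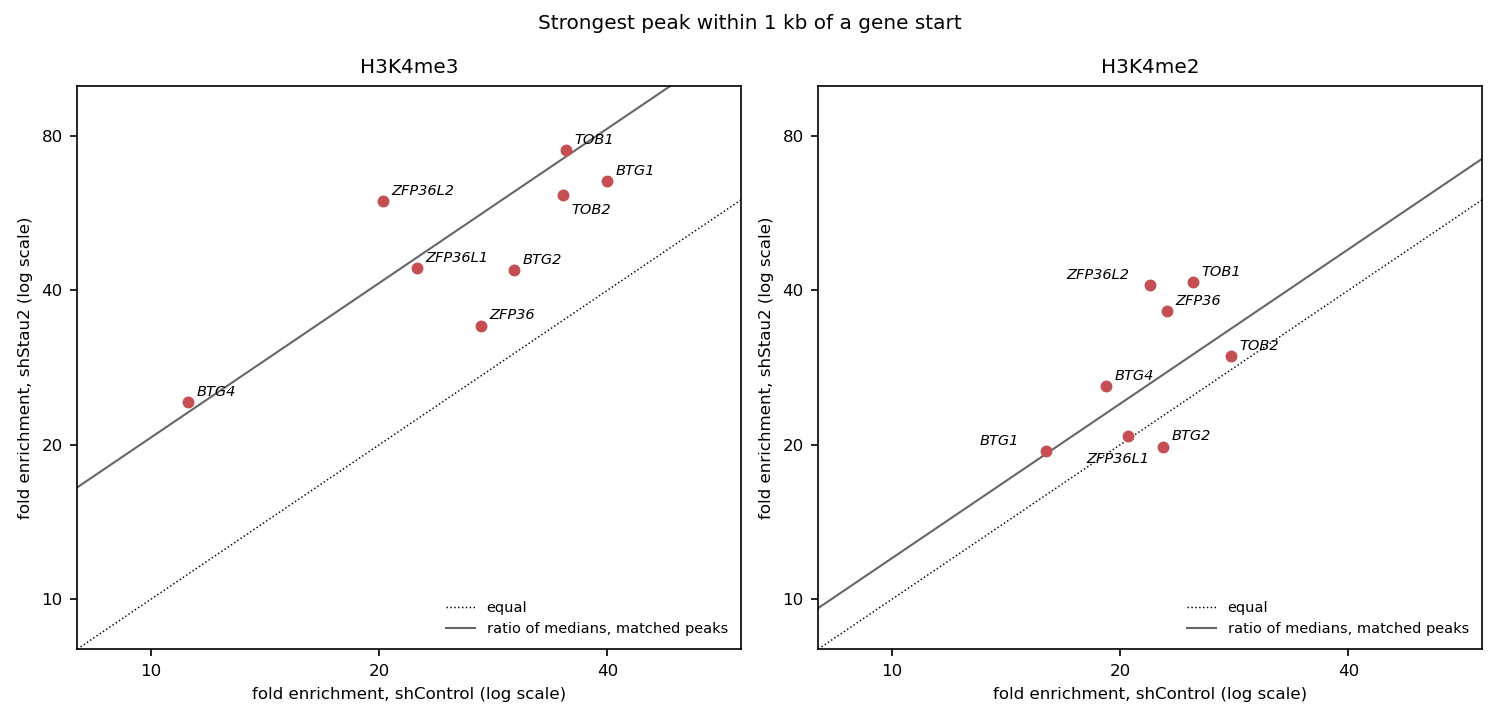
Fold enrichment of the strongest peak within 1 kb of a start (of either end for ZFP36L2) under shControl and shStau2, on log axes, for H3K4me3 (left) and H3K4me2 (right), with 1 point per gene. The dotted line marks equal values and the solid line the ratio of medians at matched peaks, 2.07 and 1.2. ZFP36L2 lies above the solid line for both marks and ZFP36 below it for H3K4me3.

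For H3K4me2 the bases covered at these genes were close to equal under the hairpins. TOB2 and ZFP36 had fewer covered bases with shStau2, as did 18.8% of 13166 genes, and the other 6 had more, as did 81.1%. Ratios ran from 0.97 at TOB2 to 1.13 at BTG1, with a median of 1.05 against 1.10 over all genes. At least 25% more bases were covered at 0 of the 8 and at 21.9% of 12752 genes covered in both lists, and at least 20% fewer at 0 and at 2.27%. The H3K4me2 start peak was wider under shStau2 at BTG1, TOB1, ZFP36L1 and ZFP36L2 and narrower at the other 4, against 73.4% of genes with a wider one. At ZFP36L2, peaks of 8463 and 2065 bases under shControl were listed as 1 peak of 10300 bases under shStau2 (41.0-fold), while covered bases were 10528 and 10541.

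**Figure D4:**
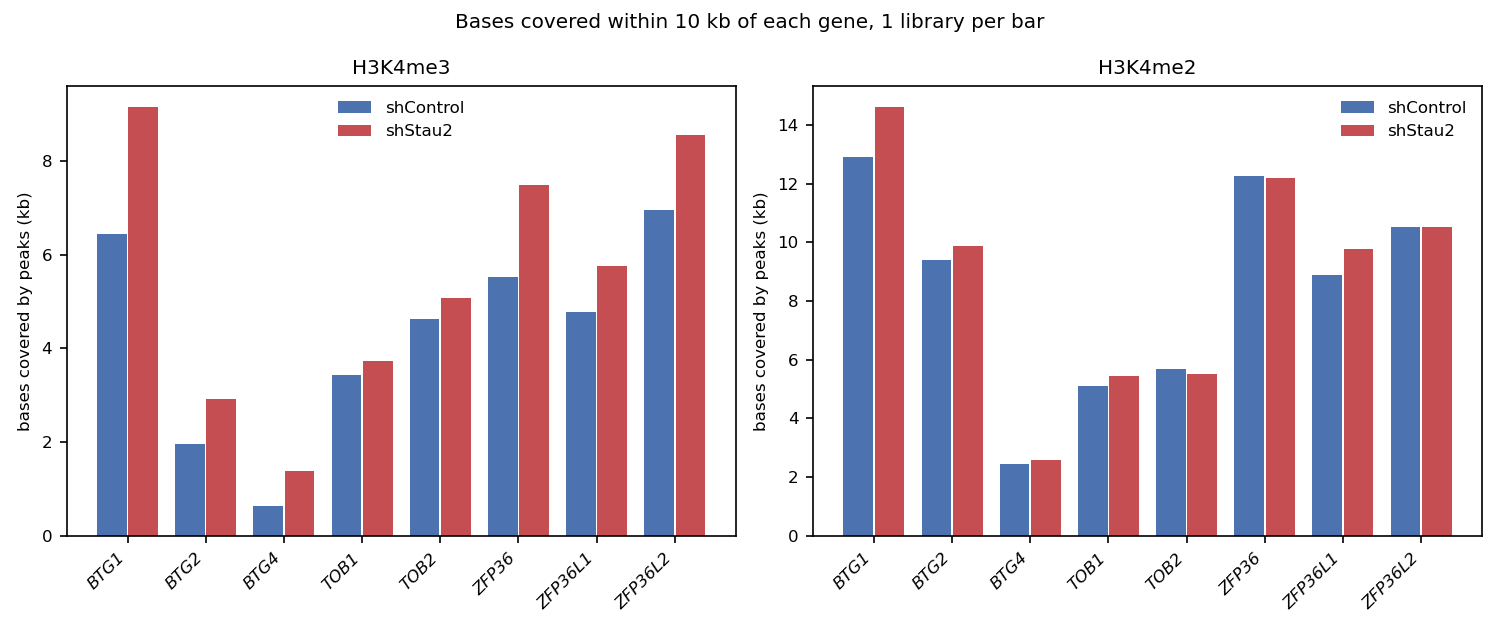
Bases covered by peaks within 10 kb of each gene, in kb, for H3K4me3 (left) and H3K4me2 (right), with 1 bar per library and no error bars, since each group has 1 library. H3K4me3 bars are taller under shStau2 at all 8 genes, and H3K4me2 bars are close to each other, with BTG4 lowest for both marks.

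**Figure D5:**
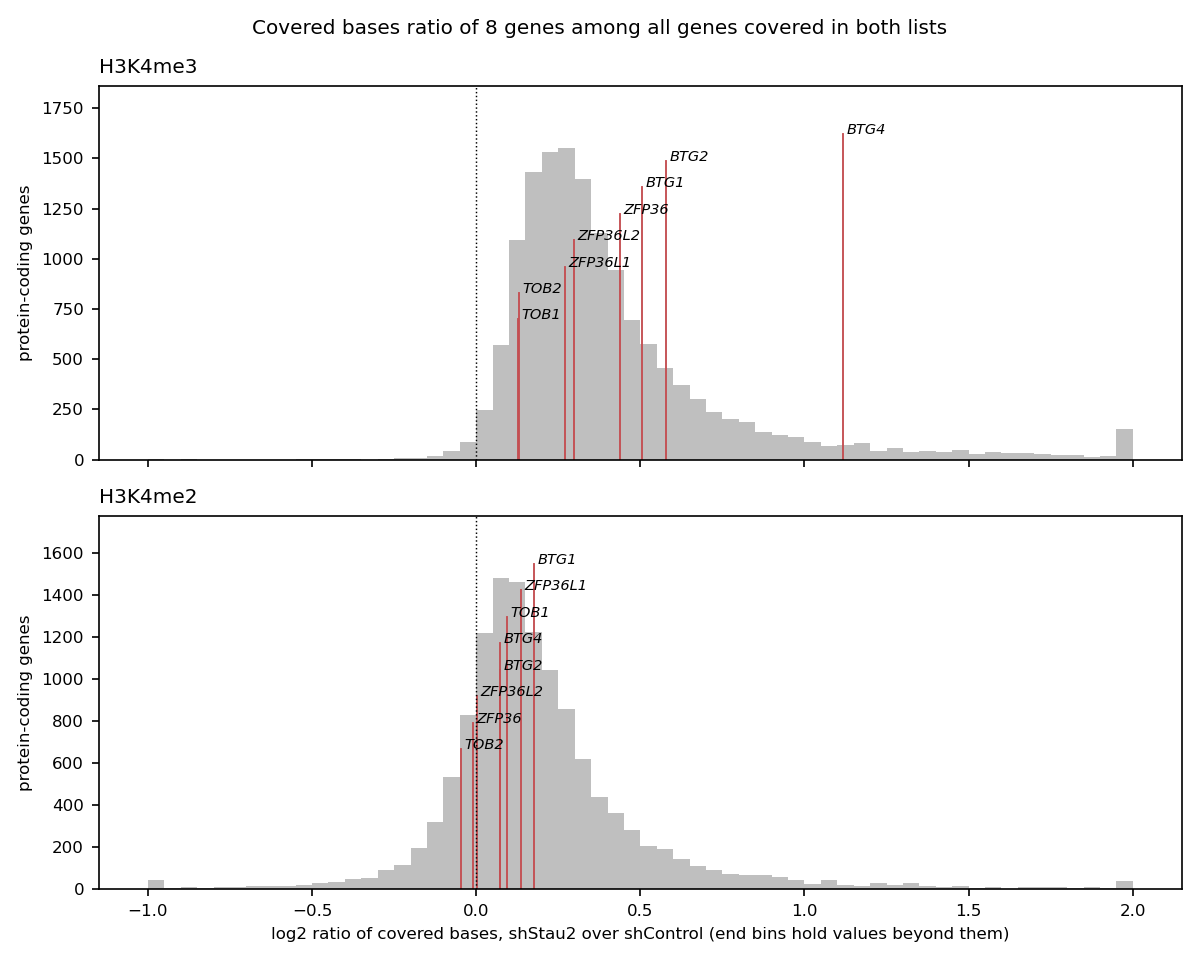
Histogram of the log2 ratio of covered bases, shStau2 over shControl, for all protein-coding genes covered in both lists (14434 for H3K4me3, above, and 12752 for H3K4me2, below), with the 8 genes as lines of arbitrary height. The H3K4me3 lines spread from TOB1 at a ratio of 1.09 to BTG4 at 2.17, and the H3K4me2 lines lie between 0.97 and 1.13.

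H3K4me3 lay almost wholly within H3K4me2. From 94.6% (ZFP36L1) to 100% (BTG2, BTG4 and TOB2) of the H3K4me3 bases were also covered by H3K4me2 under shControl, and from 94.96% (BTG1) to 100% under shStau2. The median over 10835 genes was 95.2% under shControl, and 96.7% over 11611 genes under shStau2. The reverse share separated the members. H3K4me3 took up 81.5% of the H3K4me2 bases at TOB2 and 20.8% at BTG2 under shControl, and 89.8% and 29.5% under shStau2. This share was larger under shStau2 at all 8 genes and at 84.9% of 11513 genes.

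Most members ranked in the upper part of all peaks of the shControl H3K4me3 list, with BTG4 lowest, but lower among genes with a start peak. By width, start peaks of BTG1 stood at the 99.8 percentile of H3K4me3 peaks under shControl and those of TOB2 at 99.5, whereas BTG4 stood at 36.0. The width rank of BTG1 follows from its selection on width. By fold enrichment under shControl, BTG1 stood at 99.1, TOB1 at 96.7, TOB2 at 96.5, BTG2 at 90.6, ZFP36 at 85.3, ZFP36L1 at 73.5, ZFP36L2 at 67.5 and BTG4 at 43.7. The lists differ in length, so no change is read from these ranks. The genes with start peaks most like those of BTG1 in width, by distance of log2 widths over the 4 lists among 9203 genes, were STAT5A (distance 0.12), CDKN2C (0.25) and MIDN (0.39). STAT5A start peaks were 5556 and 6696 bases wide for H3K4me3 and 7860 and 8376 for H3K4me2. The genes most like ZFP36L2 were the histone genes H3C14 (0.23), H2AC18 (0.41) and H4C14 (0.61). They lie close together on chromosome 1 and have the same H3K4me2 start peak width under shStau2, 10072 bases. H3C14 and H2AC18 also have the same H3K4me3 start peak width under shStau2, so these genes are not independent matches. At H3C14 the H3K4me3 start peak was 2269 bases wide under shControl and 7535 under shStau2.

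All listed genes of the decay machinery on which these adaptors act had H3K4me3 within 10 kb in both lists, as did 72.3% of all protein-coding genes. An H3K4me3 start peak was in both lists at 15 of 16 deadenylase genes, 19 of 19 decapping and 5′ to 3′ decay genes and 22 of 24 effector protein genes. Over all genes this share was 61.5%. Of 16 genes for CCR4-NOT and PAN proteins and other deadenylases, CNOT1, CNOT7 and CNOT8 among them, 16 had more covered bases under shStau2. At least 25% more were found at 7, and 0 were gained or lost. Over all genes 98.8% had more and 49.8% at least 25% more. The median ratio of these 16 genes was 1.236, against 1.249 over all genes. The largest ratios were at CNOT6, a catalytic subunit (2272 to 3357 bases, ratio 1.48), and PARN, a poly(A)-specific ribonuclease (3591 to 4721, 1.31), and the smallest at CNOT8 (3281 to 3592, 1.09) and PAN2 (3621 to 3966, 1.10). Of 19 decapping and 5′ to 3′ decay genes, 19 had more covered bases (98.8% of all genes) and 6 had at least 25% more (49.8%), with a median of 1.22. The largest were at LSM4 (1867 to 3483, 1.87) and LSM14A (2792 to 4268, 1.53), and the smallest at LSM7 (2316 to 2380, 1.03) and DDX6, a decapping helicase (4338 to 4596, 1.06).

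Of 24 genes for 3′ UTR-binding, poly(A)-binding and microRNA effector proteins, 24 had more covered bases (98.8% of all genes) and 12 had at least 25% more (49.8%), with a median of 1.246 against 1.249. PUM2 (2309 to 3938, 1.71) and TIAL1 (2605 to 3908, 1.5) had the largest ratios, and CELF1 (4256 to 4583, 1.08) and CPEB2 (4407 to 4939, 1.12) the smallest. Of 17 early response and antiproliferative genes, 17 had more covered bases and 5 had at least 25% more, beside the same 98.8% and 49.8% of all genes, with a median of 1.19. GADD45B (1634 to 2598, 1.59) and ATF3 (4040 to 6353, 1.57) had the largest ratios, and CDKN1A (2436 to 2536, 1.04) and GADD45A (5467 to 5758, 1.05) the smallest. BTG3, another BTG family gene outside the 8, had 2676 H3K4me3 bases with shControl and 2828 with shStau2.

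The H3K4me2 medians of these 4 lists were 1.07, 1.11, 1.08 and 1.04, against 1.10 over all genes. A start peak of H3K4me2 was listed under shStau2 only at CNOT10 (369 bases, 4.61-fold) and under shControl only at ATF3 (251 bases, 4.83-fold), compared with 2.31% and 0.652% of 14728 genes. At both genes no H3K4me3 peak lay within 1 kb of the start used in either list. H3K4me3 nevertheless covered 4199 bases under shControl and 4890 under shStau2 within 10 kb of CNOT10, and 4040 and 6353 at ATF3. These weak H3K4me2 start peaks thus lay away from the H3K4me3 of the gene. EDC3, an enhancer of decapping, had 4769 H3K4me2 bases under shControl and 3675 under shStau2, which gives a ratio of 0.77. It was the only gene in these lists with at least 20% fewer bases, against 2.27% of 12752 genes covered under both hairpins. At least 25% more H3K4me2 bases were found at 2 of 12, 2 of 15, 1 of 20 and 3 of 12 compared genes. The lists are taken in the order given above, and the share over all genes was 21.9%. EDC3 was named after its value was seen, so its ratio is a description only.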

How the data were processed

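H3K4me2 and H3K4me3 ChIP-seq and input libraries of K562 cells were grouped by the sample titles, with 1 library per group. The submitters' processing notes name Bowtie2, MACS2 and hg38. MACS2 2.1.2 was run on each library against the input of its hairpin, per the file headers, with a q-value threshold of 0.05, a fragment length of 200 bases, 1 tag per position and the larger data set scaled to the smaller. The deposited lists give pileup as signal at the summit, fold enrichment as a ratio over local background, and −log10 of the p-value and q-value.

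Genes were taken from RefSeq GRCh38.p14, and all 76 symbols of the 4 related lists matched. Covered bases were counted over the gene body with 10 kb on each side. Starts came from the RefSeq promoter table, and both gene ends stood in for the 4161 protein-coding genes without an entry. A start peak lies within 1 kb of a start. A gene was counted as differing at 25% more or 20% fewer covered bases. With 1 library per group, no test was run. Because the H3K4me2 lists break off, that mark was compared over 16 whole chromosomes plus chromosome 4 as far as base 185623562.

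Members, lists, thresholds and the naming rule were chosen with earlier results of these data known. The text names all 8 members, the 3 genes nearest in start peak width to BTG1 and to ZFP36L2, and for each related list the 2 largest and 2 smallest H3K4me3 ratios and the members gained or lost. The gap measures, CNOT1, CNOT7, BTG3 and EDC3 were added after their values were seen. Interval code was tested on 1000 simulated windows with 0 mismatches. Python 3.11.15, numpy 2.4.6, pandas 2.3.3 and matplotlib 3.10.9 were used. With from 26221869 to 30744332 tags per ChIP library, peaks just past the q-value threshold are the least reliable. One further marker list is not reported here.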

Additional observations from a re-analysis of the deposited data

How the results depend on the processing

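H3K4me3 covered more bases under shStau2 at all 8 genes and all 8 genes had both marks in both lists with stricter peak thresholds, equal peak numbers, a raised shStau2 threshold, other flanks, merged peaks, peaks at other genes left out, and whole start peaks. More H3K4me3 bases were found at 94.5% to 98.8% of all genes. The number reaching the ratio limits for H3K4me3 was 3 to 5, with 4 as reported, beside 39.4% to 49.9% of all genes. For H3K4me2, more covered bases were found at 4 to 6 genes, beside 75.6% to 81.1% of all genes. The number reaching the limits was 0 as reported, beside 24.1% of all genes. It was 1 with a −log10 q of 10 or more (25.1%), 1 with a fold enrichment of 5 or more (26.4%) and 1 with peaks within 1 kb merged (24.5%). Shares of all genes were not computed with peaks at other genes left out or for whole start peaks. Raising the shStau2 threshold removes weak peaks but does not narrow those kept, so it leaves most H3K4me3 widths as they were. Raising it while keeping the whole shControl list was also chosen after the data were seen. That setting gave more covered bases at 8 genes for H3K4me3, beside 93.8% of all genes, and at 4 for H3K4me2, beside 73.3%. With the raised threshold and the weakest 5% of shControl peaks left out, the share of all genes with more H3K4me3 was 94.6%. The BTG4 ratio for H3K4me3 was 1.29 with the raised threshold and 1.72 over the gene body alone, and the BTG1 ratio over the gene body alone was 1.02, since H3K4me3 already covered nearly the whole gene.

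Ranks depend on what is ranked. The median percentile of the 8 genes by fold enrichment was 87.95 for H3K4me3 under shControl (81.9 by summit pileup, 76.9 among genes), 84.7 under shStau2 (83.0 and 65.7), 94.4 for H3K4me2 under shControl (93.7 and 73.1) and 94.5 under shStau2 (92.8 and 72.5). By width it was 90.7 for H3K4me3 under shControl (81.3 among genes), 94.2 under shStau2 (86.5), 99.5 for H3K4me2 under shControl (97.0) and 99.0 under shStau2 (94.1). The H3K4me3 width medians include BTG1 and ZFP36L2, which were selected on that width. H3K4me3 lay almost wholly within H3K4me2, so the H3K4me2 width medians are not independent of that selection either. Of the recomputed covered-base ratios of single genes, 166 were less than 25% above and less than 20% below the reported value and 10 moved further. No reported ratio past the limits changed direction, but all of those were of H3K4me3. H3K4me2 ratios, all within the limits as reported, did change direction in some settings. Among them BTG1 went from 1.13 to 0.98 with 2 kb flanks, BTG4 from 1.05 to 0.94 with a −log10 q of 10 or more, and TOB1 from 1.07 to 0.88 with peaks within 1 kb merged. With the start block measured from its first to its last base, an alternative chosen after the data were seen, the ZFP36 ratio was 2.25 for H3K4me3. For H3K4me2 it was 0.67 at ZFP36 and 1.33 at BTG1, both past the limits, and 0.84 at TOB1. No paired analysis was possible because each group has 1 library.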
